A study of Mus musculus with 36 samples.

Results

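4T1 primary tumors and the Matrigel glands of the same mouse strain were compared at 3 weeks after intraductal inoculation, the comparison that holds the strain fixed. The members are the 6 libraries that the labels name so, 3 tumors and 3 glands, out of 36 libraries in the series. 4T1 is a metastatic mammary tumor line of BALB/c origin, here carrying luciferase, and its cells were inoculated in a mixture of PBS and Matrigel through the nipple into the third mammary gland of BALB/c dams, mated as young adults, after their pups were weaned. The Matrigel glands came from BALB/c mice inoculated with Matrigel, a basement membrane extract, without tumor cells. A tumor library thus holds whatever host gland was taken with the tumor cells, and all 6 libraries come from glands that had lactated. Libraries are called tumors 1 to 3 and glands 1 to 3 after the numbers in their titles. The tumor libraries are described with the study as independent tumors, but neither the labels nor the methods state whether the glands, or tumors and glands, came from separate mice. The p-values rest on the spread between libraries within the groups of all 36 libraries, not of these 6 alone. That spread may thus be partly technical. The other groups of the series, used here for comparison, are 4T1 tumors and BALB/c Matrigel glands at weeks 1 and 6, and Py230 tumors and C57BL/6 Matrigel glands at week 3.

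The values are scores. The 21650 genes of each library average 0 with an SD of 1, so a score says how many SDs a gene lies above or below the average gene of its library, and a difference of scores is neither a fold change nor a log2 value. The depth of the libraries is unknown from these values, and no counting interval could be given. A gene is called when the adjusted p of limma's moderated model, fitted to all 36 libraries with 1 mean per group and adjusted by Benjamini-Hochberg over all genes, is under 0.05.

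After weaning, the milk-producing epithelium of the mammary gland regresses and adipocytes fill the space again, while macrophages and lymphocytes enter the tissue. A growing tumor adds its own cells and further leukocytes. T cells recognize peptides on MHC molecules: class I presents to CD8 T cells, and class II, held by dendritic cells, macrophages and B cells, presents to CD4 T cells. Checkpoint receptors such as PD-1 and CTLA-4 are carried by activated T cells and dampen their response. In bulk tissue, more cells of a type and more RNA per cell cannot be told apart.

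At week 3, 704 genes differed between 4T1 tumors and glands, which is 3.25% of all genes, and 455 of them (2.10% of all genes) were higher and 249 (1.15%) lower in tumors. At an unadjusted p under 0.05 there were 4590 genes (21.2%), with 10.7% of all genes higher and 10.5% lower. T cell genes, MHC class II genes, complement C1q genes and checkpoint genes were among those higher, and epithelial sodium channel subunits among those lower. The 3 tumors were uneven, however, and tumor 1 stood apart. Its scores correlated across genes with those of the other 5 libraries at r = 0.929 to 0.960, whereas the 10 pairs among those 5 libraries, tumors and glands alike, had r = 0.977 to 0.991. Tumor 1 was the library farthest from the gland mean for 423 of the 455 genes called higher and for 205 of the 249 called lower. Without tumor 1, 3 genes were called (0.0139% of all genes), 2 higher (0.00924%) and 1 lower (0.00462%), and 1844 had an unadjusted p under 0.05. Without tumor 2 there were 1303 called genes and without tumor 3 there were 2155. The glands mattered as well, with 75 genes called without gland 1, 15 without gland 2 and 20 without gland 3. Tumor 1 alone against the 3 glands gave 6099 genes (28.2%), 14.9% of all genes higher and 13.2% lower, a fit chosen after seeing the data in which the single tumor is assumed to vary like the libraries of the other groups. With only the 6 libraries of the comparison in the fit, limma called 0 genes, although 2180 had an unadjusted p under 0.05. An exact permutation test of 3 against 3 libraries cannot go below p = 0.1. Single libraries are therefore given for many of the genes named below. For the others only the difference of the group means is given, which does not show how far tumor 1 carries it.

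**Figure D1:**
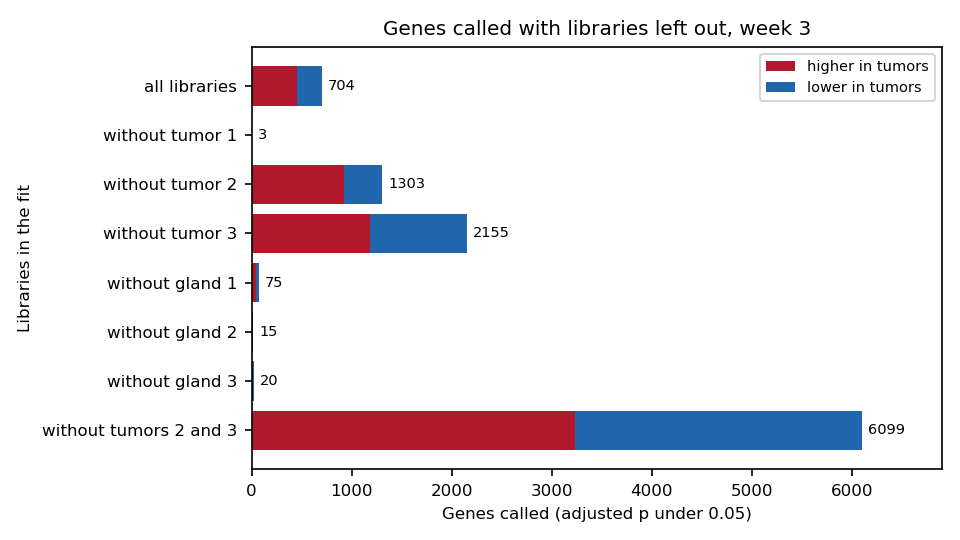
Number of genes called at an adjusted p under 0.05 (x axis) in the comparison of 4T1 tumors with BALB/c Matrigel glands at week 3, with all libraries and with the libraries named on the y axis left out, split into genes higher (red) and lower (blue) in tumors. The bar shrinks from 704 to 3 genes without tumor 1 and grows to 6099 genes when tumors 2 and 3 are left out.

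How far single tumors lay from the glands is given here as a description, since the genes were called on the same scores. Of the 455 genes called higher, 443 lay above every gland in all 3 tumors, and the other 12 did so in 2 tumors. Of the 249 called lower, 245 lay below every gland in all 3 tumors and 4 in 2 tumors. Over all genes, 20.3% had 3 tumor scores that did not overlap with the 3 gland scores, 9.74% above and 10.5% below. Taken singly, tumor 1 lay beyond all 3 glands in 74.3% of all genes (37.2% above and 37.1% below), tumor 2 in 54.5% (22.8% and 31.7%) and tumor 3 in 47.8% (22.2% and 25.6%). The median distance from the gland mean of the genes called higher was 0.69 in tumor 1, 0.29 in tumor 2 and 0.29 in tumor 3. For the genes called lower it was -0.36, -0.24 and -0.17. The distance was larger in tumor 1 than in the other tumors in both directions.

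Hmga2, a chromatin protein gene that is active in embryonic tissue and in many tumors, was scored high in the 4T1 tumors of week 6. Its score was -0.17 in tumor 1, -1.82 in tumor 2 and -1.73 in tumor 3, against -1.76, -1.88 and -1.92 in the glands. Tumor 2 lay within the gland range and tumor 3 just above it, and the difference of 0.61 did not pass (standard error 0.228, adjusted p = 0.120). At week 1, the Hmga2 scores of the 4T1 tumors were -1.31, -1.36 and -1.32, above glands at -1.82, -1.82 and -1.83, and at week 6 the 4T1 tumors reached 1.35, 1.61 and 1.17. The 30 genes with the largest tumor minus gland difference at week 6, a list chosen from these data and given as a description, also scored highest in tumor 1 among the week 3 tumors. Their median score was 0.01 in tumor 1, -0.72 in tumor 2 and -0.78 in tumor 3, and from -0.88 to -0.76 in the week 3 glands. In the week 6 tumors it was 1.06 to 1.17. In these genes, tumor 2 lay just above the gland range and tumor 3 within it, and tumor 1 lay between the glands and the week 6 tumors.

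**Figure D2:**
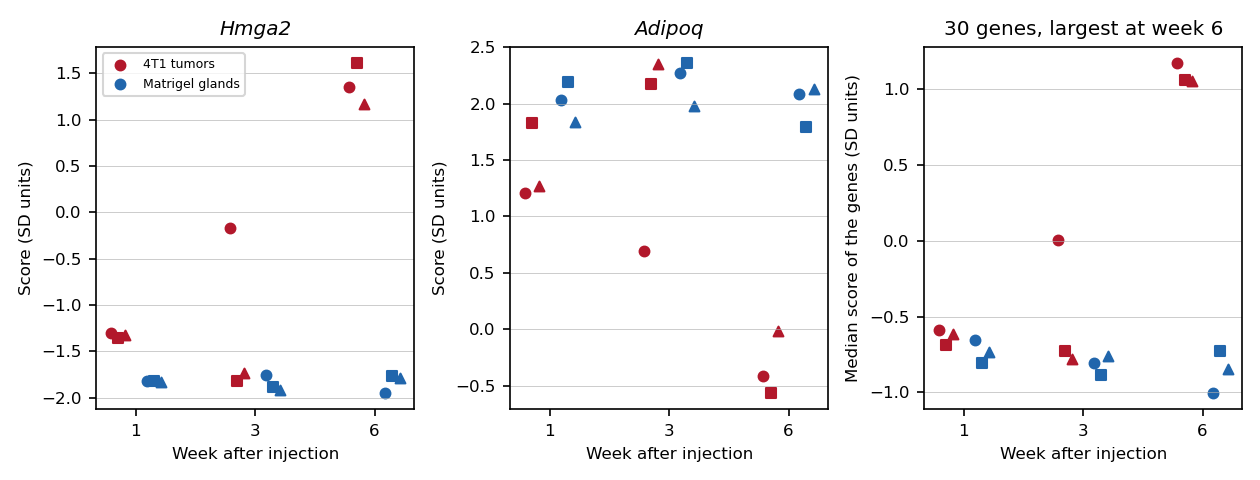
Score in SD units (y axis) of Hmga2, of the adipocyte gene Adipoq and, as a median, of the 30 genes with the largest tumor minus gland difference at week 6, in 4T1 tumors (red) and BALB/c Matrigel glands (blue) at weeks 1, 3 and 6 (x axis), with 1 symbol per library (circle, square and triangle for replicates 1, 2 and 3). At week 3, tumor 1 lies between the glands and the week 6 tumors for Hmga2 (-0.17) and Adipoq (0.69), and tumors 2 and 3 lie at or near the glands.

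Adipocyte markers were low in tumor 1 and not in the other tumors. All 28 measured adipocyte genes lay below every gland in tumor 1, against 2 in tumor 2 and 0 in tumor 3. Over all genes, 37.1% lay below every gland in tumor 1, 31.7% in tumor 2 and 25.6% in tumor 3. The median score of the list was 0.70 in tumor 1, 2.10 in tumor 2 and 2.17 in tumor 3, and it ranged from 1.83 to 2.30 in the glands. Adipoq, the adipocyte hormone adiponectin, scored 0.69, 2.18 and 2.35 in the tumors and 2.27, 2.36 and 1.97 in the glands. None of the 28 genes was called, in either direction, and the median difference of the list was -0.45 (median of all genes -0.01). In tumor 1, 15 of 22 endothelial and angiogenesis genes and 6 of 6 erythroid genes also lay below every gland, against 3 and 0 in tumor 2 and 5 and 4 in tumor 3. Skeletal muscle genes varied with single libraries too, with a median score of 1.93 in tumor 2 against 1.05 and 1.08 in tumors 1 and 3, and of -0.12 in gland 3 against 1.78 and 1.70 in glands 1 and 2. Their part in the results below was not tested.

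T cell and NK cell genes had the largest share of calls of the 25 lists. Of 27 measured genes, 18 (66.7%) were higher in tumors and 0 lower, beside 2.10% and 1.15% of all genes. All 27 lay above every gland in tumors 1 and 3, and 22 did so in tumor 2, beside 37.2%, 22.2% and 22.8% of all genes. The median distance of the list from the gland mean was 1.04 in tumor 1, 0.18 in tumor 2 and 0.52 in tumor 3. Cd3e, a chain of the CD3 complex that carries the T cell receptor signal, scored 0.44, -0.52 and -0.19 in the tumors and -0.82, -0.82 and -0.75 in the glands. The groups did not overlap, and the difference was 0.70 (standard error 0.166, adjusted p = 0.0300). Cd8a, a coreceptor chain of cytotoxic T cells, scored 0.74, -0.54 and -0.02 against -0.70, -0.67 and -0.88, a difference of 0.81 (standard error 0.210, adjusted p = 0.0384). Cd4, the coreceptor of helper T cells, differed by 0.54 (adjusted p = 0.0496) and overlapped in tumor 2, at 0.07 beside the highest gland at 0.09. Foxp3, the transcription factor of regulatory T cells, scored 0.59, 0.02 and 0.12 in the tumors and -0.16, -0.14 and -0.09 in the glands. Its difference was 0.37 (adjusted p = 0.0426). Cxcr6, a chemokine receptor of tissue T cells, had the smallest p of the list, with 0.66, -0.14 and 0.16 in tumors and -0.41, -0.47 and -0.50 in glands (difference 0.69, adjusted p = 0.0152). Transcription factors of effector lymphocytes were called as well, Tbx21 by 0.47 (adjusted p = 0.0246) and Eomes by 0.66 (adjusted p = 0.0284). Of the cytotoxic granule genes, Nkg7 was called, with 0.74, -0.17 and 0.13 in tumors and -0.39, -0.45 and -0.33 in glands (difference 0.62, adjusted p = 0.0384). Gzma (difference 0.28, adjusted p = 0.229), Gzmb (0.37, adjusted p = 0.285) and Prf1 (0.48, adjusted p = 0.104), which code for granzymes and perforin, did not pass. Without tumor 1, 0 of the 27 genes were called, and the same held for each list described here.

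**Figure D3:**
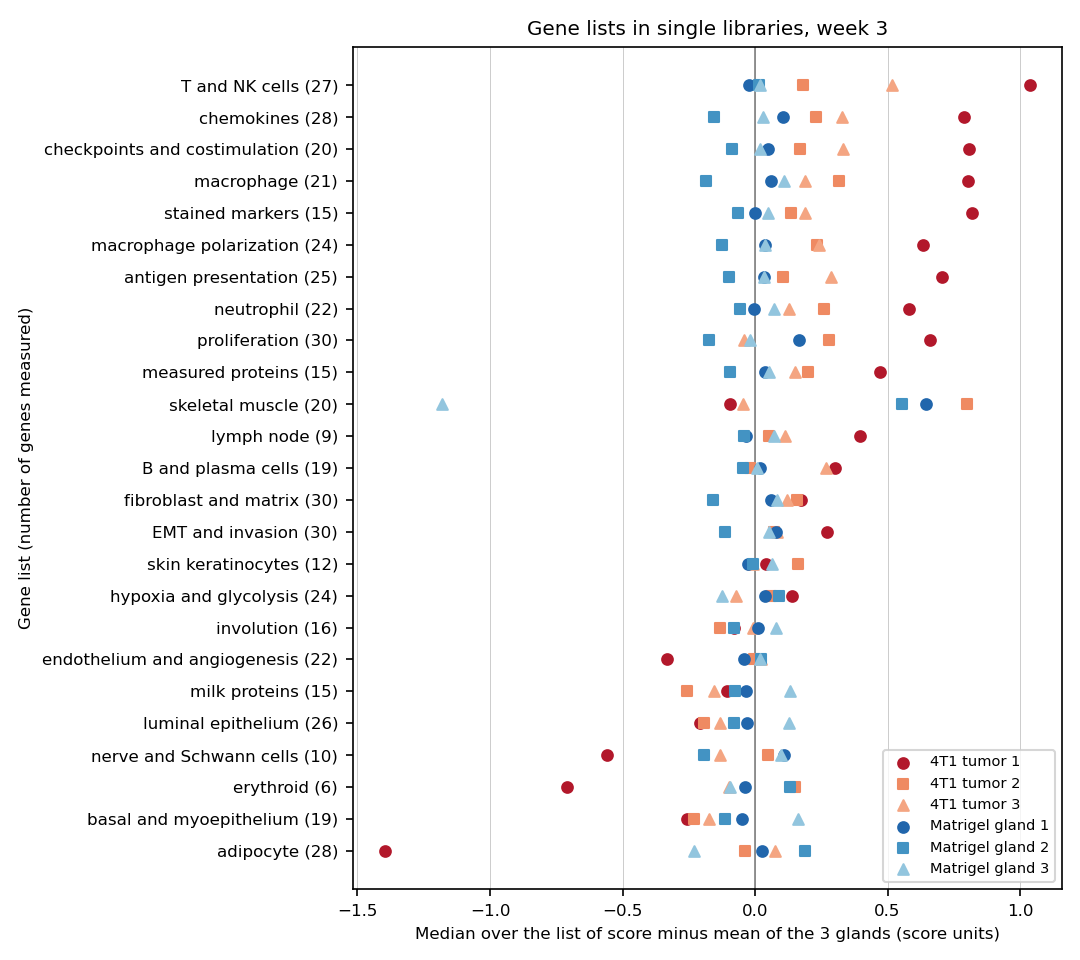
For each gene list (y axis, number of genes measured in brackets), the median over its genes of the score minus the mean of the 3 glands (x axis, score units) in tumors 1 to 3 (red tones) and glands 1 to 3 (blue tones). For T and NK cells, tumors 1, 3 and 2 lie at 1.04, 0.52 and 0.18 and the glands between -0.02 and 0.02, while for adipocytes tumor 1 lies at -1.40 and the other tumors within the glands.

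Several MHC class II genes and the gene of their transactivator were higher in tumors, while H2-DMb1 and H2-Oa did not pass. The promoters of class II genes share conserved boxes, and the Y box holds the letters TGATTGG around an inverted CCAAT motif. The upstream sequences of 3 class II genes are shown as examples that carry these letters close to the start, printed from 5′ to 3′ on the strand of the gene and ending at the base before the RefSeq start, with TGATTGG in capitals. They are from RefSeq on GRCm38.p6, at chr17:34287824-34288073 on the minus strand for H2-Aa, chr17:34305617-34305866 on the plus strand for H2-Eb1 and chr17:34152941-34153190 on the plus strand for H2-DMb1. H2-Ab1 and Ciita had no entry.
H2-Aa: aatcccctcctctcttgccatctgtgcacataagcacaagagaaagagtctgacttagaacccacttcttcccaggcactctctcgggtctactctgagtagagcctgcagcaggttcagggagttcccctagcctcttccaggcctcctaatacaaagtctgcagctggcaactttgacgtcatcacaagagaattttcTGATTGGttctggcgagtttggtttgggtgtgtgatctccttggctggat
H2-Eb1: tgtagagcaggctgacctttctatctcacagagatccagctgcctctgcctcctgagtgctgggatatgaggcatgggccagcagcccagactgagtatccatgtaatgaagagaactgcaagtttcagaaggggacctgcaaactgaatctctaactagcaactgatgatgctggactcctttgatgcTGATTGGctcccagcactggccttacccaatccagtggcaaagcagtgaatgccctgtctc
H2-DMb1: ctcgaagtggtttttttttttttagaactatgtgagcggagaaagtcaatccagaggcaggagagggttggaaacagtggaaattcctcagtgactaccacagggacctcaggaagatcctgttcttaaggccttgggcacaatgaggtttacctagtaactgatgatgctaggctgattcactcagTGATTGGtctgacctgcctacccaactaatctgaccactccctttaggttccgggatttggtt
The motif starts 50, 61 and 63 bases before the start in these genes. On either strand, TGATTGG lies in 7.23% of all 32851 promoter windows of 250 bases and in 7 of the 21 windows of the antigen presentation list (33.3%), of which 19 of 25 genes had an entry. Holders and calls did not coincide. H2-DMa, a called class II gene, had no match, whereas H2-Oa, which was not called, and H2-D1, Psmb9 and Tap1, which are not class II genes, had one. A match is a description of the letters and not of binding.

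H2-Eb1, a class II beta chain, scored 2.95, 2.17 and 2.20 in tumors 1 to 3 and 1.81, 1.62 and 1.77 in the glands. H2-Aa, a class II alpha chain, scored 3.02, 2.28 and 2.31 against 1.96, 1.75 and 1.92. Every tumor lay above every gland in both, with a difference of 0.71 for H2-Eb1 (standard error 0.162, adjusted p = 0.0284) and of 0.66 for H2-Aa (standard error 0.161, adjusted p = 0.0327). H2-Ab1 (difference 0.65, adjusted p = 0.0347), the invariant chain gene Cd74 (0.66, adjusted p = 0.0335) and H2-DMa, which helps to load peptides (0.63, adjusted p = 0.0257), followed. H2-DMb1, the partner of H2-DMa, scored 1.67, 0.97 and 0.95 against 0.79, 0.53 and 0.68 and did not pass (difference 0.53, adjusted p = 0.0579). H2-Oa, which modulates peptide loading, scored -0.53, -0.97 and -0.47 against -0.86, -0.997 and -0.80, with tumor 2 inside the gland range (difference 0.23, adjusted p = 0.281). Ciita, the class II transactivator, scored 1.61, 0.83 and 0.91 in tumors and 0.52, 0.29 and 0.44 in glands (difference 0.70, adjusted p = 0.0372). Tumors 2 and 3 lay close together, between the glands and tumor 1. Differences of the classical class I genes were smaller in size, while the nonclassical class I gene H2-M2 differed by 0.93. H2-D1 was called at 0.26 (adjusted p = 0.0466), while H2-K1 at 0.27 (adjusted p = 0.0518) and B2m, the class I light chain, at 0.23 (adjusted p = 0.0694) did not pass. Nlrc5, the transactivator of class I genes, was called at 0.45 (adjusted p = 0.0374). In all, 9 of the 25 antigen presentation genes (36.0%) were higher and 0 lower, and the list median was 0.37. H2 genes are close copies of each other, so reads may be shared between them.

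Checkpoint and costimulation genes followed, with 6 of 20 (30%) higher and 0 lower and a list median of 0.44. Pdcd1lg2, which codes for the PD-1 ligand PD-L2, had the largest difference, scoring 1.11, -0.37 and -0.32 in tumors and -1.13, -1.34 and -1.42 in glands (difference 1.44, standard error 0.297, adjusted p = 0.0186). Its tumor scores did not overlap with the glands, and tumor 1 lay far above the other tumors. Pdcd1, the gene of PD-1, scored 0.23, -0.68 and -0.44 against -0.97, -1.24 and -1.08 (difference 0.80, standard error 0.159, adjusted p = 0.0152). Ctla4 scored 0.09, -0.79 and -0.49 against -1.26, -1.29 and -1.36 (difference 0.91, standard error 0.200, adjusted p = 0.0256). All 3 tumors lay above the glands in both. Tigit (difference 0.87), Tnfrsf4 (0.68) and the costimulatory ligand gene Cd80 (0.49) were also called. Cd274, the gene of PD-L1, scored 1.11, 0.43 and 0.71 in tumors and 0.47, 0.67 and 0.43 in glands and did not pass (difference 0.23, adjusted p = 0.265), and neither did Lag3 (difference 0.32, adjusted p = 0.249).

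Of 21 macrophage genes, 19 had a difference above 0, beside 45.1% of all genes, and the list median was 0.44. Called higher were 6 (28.6%) and called lower 0. The 6 were Cd300lf, Adgre1, Fcgr3 and the complement genes C1qa, C1qb and C1qc. Cd300lf, an inhibitory receptor of myeloid cells, scored 0.73, 0.24 and 0.07 in tumors and -0.32, -0.91 and -0.54 in glands (difference 0.93, standard error 0.175, adjusted p = 0.0140). Adgre1, the F4/80 antigen, scored 1.81, 1.47 and 1.36 against 1.08, 0.80 and 1.01 (difference 0.59, adjusted p = 0.0304). In both, every tumor lay above every gland and tumor 1 highest. Cd68 (difference 0.40, adjusted p = 0.0973), Csf1r (0.45, adjusted p = 0.0889) and Cd163 (0.40, adjusted p = 0.295) did not pass. Among macrophage polarization genes, 3 of 24 (12.5%) were higher, Cd80, Egr2 and Tnf. Egr2, a transcription factor of alternatively activated macrophages, was even across tumors at 0.86, 0.78 and 0.70, and the glands were at 0.31, -0.06 and 0.51 (difference 0.53, adjusted p = 0.0303). Arg1 and Chil3, both made by alternatively activated macrophages, scored highest in tumor 1. Arg1 scored 2.14, 0.80 and 0.53 against 0.66, 0.63 and 0.62 (difference 0.52, adjusted p = 0.255). Chil3 scored 1.45, -0.55 and -0.9998 against -1.41, -1.23 and -1.51 (difference 1.35, adjusted p = 0.0795). This was not particular to Arg1 and Chil3. Nos2 also scored highest in tumor 1, with 1.02, 0.09 and 0.50 against 0.17, 0.23 and -0.07 (difference 0.43, adjusted p = 0.131). Of the 24 polarization genes, 20 lay above every gland in tumor 1, 16 in tumor 2 and 18 in tumor 3. Over all genes the shares were 37.2%, 22.8% and 22.2%.

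Of 22 neutrophil genes, 4 (18.2%) were higher and 0 lower, with a list median of 0.33. S100a8 and S100a9, which code for the calprotectin subunits, scored 0.06, -0.42 and -0.75 against -1.16, -0.94 and -1.04, and 0.23, -0.32 and -0.50 against -0.94, -0.85 and -0.76 (differences 0.68 and 0.65, adjusted p = 0.0284 and 0.0486). Csf3r, the G-CSF receptor gene, was called at 0.63 (adjusted p = 0.0466) and the granule gene Ngp at 0.75 (adjusted p = 0.0368). Ly6g, the gene of the neutrophil surface antigen, lay near the lowest scores of the table, at -2.08, -2.23 and -2.08 in tumors and -2.16, -2.19 and -2.16 in glands. Of 19 B and plasma cell genes, 3 (15.8%, beside 2.10% of all genes) were higher and 0 lower. Among the 3 were Ms4a1, a B cell surface antigen gene (difference 0.30, adjusted p = 0.0451), and Ighm, the IgM heavy chain (0.52, adjusted p = 0.0491). Cd79a (0.16, adjusted p = 0.621) and Cd79b (0.29, adjusted p = 0.195) did not pass. The list median relative to the gland mean was 0.30, -0.02 and 0.27 in tumors 1 to 3. In tumor 2, 4 genes of the list lay above and 6 below every gland, beside 22.8% and 31.7% of all genes. Ms4a1 lay far below 0 in every library. Of 9 lymph node genes, 2 were called, among them the lymphotoxin gene Ltb at 0.61 (adjusted p = 0.0347), and Ccl19, Ccl21a, Cxcl13 and Fcer2a were not. Ptprc, the pan-leukocyte CD45 gene, scored 1.93, 1.44 and 1.44 against 1.19, 0.91 and 1.15 (difference 0.52, adjusted p = 0.0425).

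Of 15 genes whose proteins were also assayed, 2 were called (13.3%). Tnf scored -0.24, -0.20 and -0.40 in tumors and -0.58, -0.85 and -0.69 in glands (difference 0.43, adjusted p = 0.0411). Il6 scored -0.81, -0.93 and -1.03 against -1.38, -1.51 and -1.37 (difference 0.50, adjusted p = 0.0454). Both cytokine genes were even across the 3 tumors. Il1b (difference 0.79, adjusted p = 0.0769), the neutrophil chemokine gene Cxcl2 (0.68, adjusted p = 0.0513), Il10 (0.40, adjusted p = 0.0518), Il4 (0.22, adjusted p = 0.0667) and Ifng (0.32, adjusted p = 0.0872) did not pass. Ccl2 (0.64, adjusted p = 0.112), Tgfb1 (0.26, adjusted p = 0.0890), Mmp9 (0.35, adjusted p = 0.353) and Tnfsf13b (0.15, adjusted p = 0.350) did not pass either. Csf3, the G-CSF gene, differed by 0.05 (adjusted p = 0.904), and Vegfa, Chil1 and Lcn2 by -0.12, -0.51 and -0.31 (adjusted p = 0.502, 0.154 and 0.160). Of the 15 stained markers, the 7 called were leukocyte genes. Mki67 scored 1.22, 0.79 and 0.45 against 0.65, 0.15 and 0.39 (difference 0.42, adjusted p = 0.212). Pecam1, the endothelial gene, differed by 0.01 (adjusted p = 0.955), Car9 by 0.28 (adjusted p = 0.302), Krt5 by -0.17 (adjusted p = 0.730) and Itgax by 0.42 (adjusted p = 0.293).

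Among 28 chemokine genes, Ccl8, Ccl9 and Ccl6 were called. Ccl8, a monocyte chemokine gene, scored 2.78, 1.83 and 1.65 in tumors and 1.12, 0.63 and 1.29 in glands (difference 1.07, standard error 0.256, adjusted p = 0.0307). It was 1 of the 12 largest differences upward among called genes whose groups did not overlap, and the others included 2 immunoglobulin constant genes. Ighg1 (chr12:113325240-113330523) scored 1.51, 0.32 and 0.79 against -0.59, -0.64 and -0.81, the largest difference of these at 1.55 (standard error 0.295, adjusted p = 0.0141). Ighg2c differed by 1.07 (adjusted p = 0.0441). Immunoglobulin genes are near copies of each other, so reads may be shared among them. Col6a5 (chr9:105856078-105960643), a collagen VI chain, scored 1.82, 1.38 and 0.95 against 0.28, -0.68 and -0.01 (difference 1.52, standard error 0.265, adjusted p = 0.0140). Rnase2a, a ribonuclease gene of the eosinophil family with close copies, scored 2.23, 1.45 and 0.86 against 0.35, -0.46 and 0.23 (difference 1.47, adjusted p = 0.0186). Clca1 scored 1.21, 0.74 and 0.50 against -0.21, -1.07 and -0.38 (difference 1.37, adjusted p = 0.0419). Tumor 2 stood above tumor 3 in Col6a5, Rnase2a and Clca1, the reverse of the T cell genes. The lectin gene Cd209e (difference 1.18), H2-M2 (0.93), Serpina3g (0.91) and the protease gene Mmp25 (0.88) completed the 12 with Pdcd1lg2 and Cd300lf.

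The 12 largest differences downward were smaller, from -0.50 to -0.81, and how even they were across tumors varied by gene. Scnn1g and Scnn1b, 2 subunits of the epithelial sodium channel that lie next to each other on chromosome 7, were both lower. Scnn1g (chr7:121734479-121768475) scored -0.59, -0.48 and -0.34 in tumors and 0.21, 0.08 and 0.25 in glands (difference -0.65, standard error 0.122, adjusted p = 0.0140). Scnn1b scored -0.02, 0.43 and 0.64 against 0.96, 0.93 and 1.03 (difference -0.62, adjusted p = 0.0466). Chrm1, a muscarinic receptor gene, scored -0.52, -0.47 and -0.30 against 0.04, 0.01 and 0.17 (difference -0.50, adjusted p = 0.0140), and without tumor 1 its difference was -0.46 (adjusted p = 0.148). For Scnn1g and Chrm1 tumor 1 was not an outlying library. Cck, the cholecystokinin gene, had the largest difference, with -0.83, -0.06 and 0.16 against 0.61, 0.40 and 0.70 (difference -0.81, adjusted p = 0.0424). Without tumor 1 the Cck difference was -0.52 (adjusted p = 0.482). Hey1, a Notch target, scored 0.13, 0.42 and 0.58 against 0.92, 0.87 and 0.89 (difference -0.52, adjusted p = 0.0179). Cited1, a cofactor of estrogen receptor signaling in the mammary gland, scored -0.28, 0.48 and 0.43 against 0.84, 0.69 and 0.88 (difference -0.59, adjusted p = 0.0470). Rasgef1c (-0.68), Casq2 (-0.56), Fhod3 (-0.53), Homer2 (-0.52), Il17b (-0.51) and Fut9 (-0.50) were the others.

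**Figure D4:**
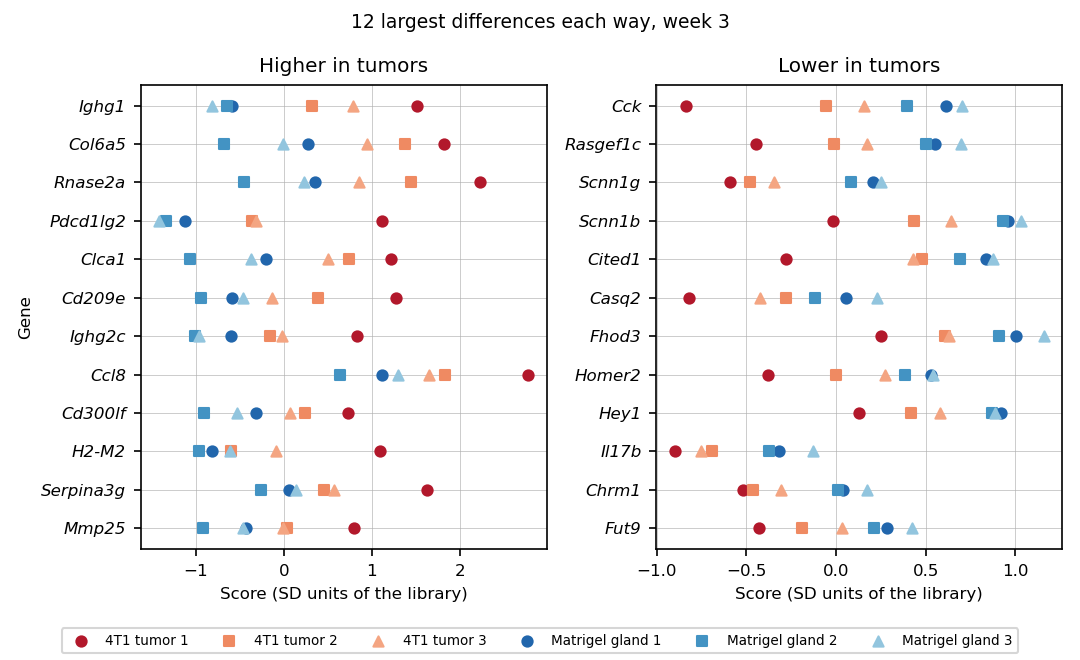
Score in SD units of the library (x axis) of the 12 genes with the largest differences upward (left) and downward (right) among called genes with no overlap, in tumors 1 to 3 (red tones) and glands 1 to 3 (blue tones). For Ighg1 the tumors lie between 0.32 and 1.51 and the glands between -0.81 and -0.59, and for Scnn1g the tumors between -0.59 and -0.34 and the glands between 0.08 and 0.25.

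Cited1 was the 1 called gene of 26 luminal genes (3.85% lower, beside 1.15% of all genes), of which 23 had a negative difference. The list median was -0.18. In tumors 1, 2 and 3, 17, 18 and 18 of the 26 lay below every gland, beside 37.1%, 31.7% and 25.6% of all genes. The luminal list had medians of -0.21, -0.19 and -0.13 relative to the gland mean in the 3 tumors. Krt8 differed by -0.05 (adjusted p = 0.795) and Epcam by -0.17 (adjusted p = 0.474). Lalba, the alpha-lactalbumin gene, was the 1 called gene of 15 milk protein genes (6.67%), at 0.61, 0.67 and 0.98 against 1.16, 1.13 and 1.30 (difference -0.44, adjusted p = 0.0466). The casein gene Csn2 scored 2.35, 1.71 and 1.76 against 1.83, 1.67 and 2.00 and did not pass (difference 0.11, adjusted p = 0.787). Pik3r1 was the 1 called gene of 16 involution genes (difference -0.35, adjusted p = 0.0284). The lists basal and myoepithelium (19 genes), endothelium and angiogenesis (22), fibroblast and matrix (30), EMT and invasion (30), hypoxia and glycolysis (24), nerve and Schwann cells (10), skin keratinocytes (12), erythroid (6), skeletal muscle (20) and proliferation (30) had 0 called genes in this limma fit. With 3.25% of all genes called, a count of 0 in lists of this size lies near the background and says nothing about their members. All 30 proliferation genes lay above every gland in tumor 1, 25 in tumor 2 and 0 in tumor 3, beside 37.2%, 22.8% and 22.2% of all genes. The median of the proliferation list was 0.66, 0.28 and -0.04 relative to the gland mean. Of the authors' 28 hallmark sets, allograft rejection held most calls, with 35 of 179 genes (19.6%) higher and 0 lower and a median of 0.27. IL-6-JAK-STAT3 signaling had 13 of 78 (16.7%) and IFN-γ response 20 of 193 (10.4%) higher, and Wnt-beta-catenin signaling had 0 higher and 6 of 38 (15.8%) lower.

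The 3 genes called without tumor 1, which are named here after their values were seen, were Mucl1, Neto1 and Gm5886. Mucl1, a mucin-like secreted protein gene, scored 0.98, 0.10 and -0.24 in tumors and -1.30, -1.42 and -1.24 in glands, a difference of 1.60 (standard error 0.218, adjusted p = 0.000809). Without tumor 1 it was 1.25 (adjusted p = 0.00817), and its adjusted p stayed between 4.91e-05 and 0.00982 with any 1 of the 6 libraries left out. Gm5886, a predicted gene, was lower in tumors at -1.90, -1.86 and -1.74 against -1.18, -1.07 and -0.89 (difference -0.79, adjusted p = 2.90e-06). Neto1 scored -1.36, -0.91 and -1.16 against -1.48, -1.49 and -1.56 and differed by 0.37 (adjusted p = 0.0284). All 3 have a mean normalized count under 100 in the deposited table.

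Some genes differed widely between the tumors, and their gaps are given as a description with no test of the gap. Among genes whose mean normalized count reached 100, the widest gaps between 1 tumor and its neighbour were in Mmd2 (2.03), Cyp2e1 (1.99), Chil3 (1.99), Pck1 (1.82), Cux2 (1.77) and Krt15 (1.74). Cyp2e1 and the gluconeogenesis gene Pck1, both active in fat, scored -0.10 and 0.67 in tumor 1 against 1.91 and 2.49 in tumor 2 and 1.90 and 2.50 in tumor 3. Krt15, a basal keratin gene, was at 0.61 and 0.64 in tumors 1 and 2 and at -1.14 in tumor 3, beside -1.09, -1.06 and -0.96 in glands. In 5 of the 6 genes tumor 1 was the library apart. For Chil3, all 3 tumors lay above every gland as well.

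The tumor minus gland difference at week 3 was compared with 3 others by contrasts of differences in the same fit, each with its own gland libraries. Against week 1, limma called 1 gene (0.00462% of all genes), and 964 (4.45%) had an unadjusted p under 0.05. The gene was Npw, named after its values were seen, at -1.80, -1.76 and -1.78 in the week 3 tumors and -1.61, -1.61 and -1.55 in the glands, near the lowest scores of the table (contrast -0.30, standard error 0.0502, adjusted p = 0.0469). The list medians of T and NK cell genes were 0.60 at week 1 and 0.57 at week 3, and those of antigen presentation genes 0.49 and 0.37. With array quality weights the same contrast called 2178 genes, so the low count does not show that the weeks were alike.

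Against week 6, 8008 genes were called (37.0%), 2456 higher (11.3%) and 5552 lower (25.6%) at week 3, and 46.4% of all genes had an unadjusted p under 0.05. The split depends on the scaling, since cyclic loess gave 49.8% and a robust line 43.4% of the calls higher, in place of 30.7%. Adipocyte genes were called in 23 of 28 and milk protein genes in 10 of 15 as higher at week 3, and in 0 and 1 as lower. Their median tumor minus gland differences were -1.86 and -1.73 at week 6 and -0.45 and -0.23 at week 3. Of 30 proliferation genes, 21 were called lower at week 3, with medians of 0.29 at week 3 and 0.93 at week 6. Of 22 neutrophil genes, 13 were called lower and 1 higher, with medians of 0.33 and 0.88. T and NK cell genes had 5 of 27 (beside 11.3% of all genes) called higher and 0 lower.

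Against Py230 at week 3, 1980 genes were called (9.15%), 571 higher (2.64%) and 1409 lower (6.51%) in the 4T1 comparison, and 25.4% of all genes had an unadjusted p under 0.05. The share higher was 28.8%, and 39.5% with cyclic loess, and the number of calls ran from 569 without Py230 tumor 1 to 3942 without Py230 tumor 3. It was 60 with only the 12 compared libraries in the fit and 7142 with array quality weights. Here, the strain and the tumor line differ together, and each difference is set against glands of its own strain. Macrophage genes were called higher in 6 of 21 and fibroblast and matrix genes in 9 of 30, and 0 and 1 lower. The list medians were 0.44 for 4T1 and -0.07 for Py230 in macrophage genes, and 0.18 and -0.27 in fibroblast and matrix genes. No T and NK cell gene was called, with medians of 0.57 and 0.26.

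**Figure D5:**
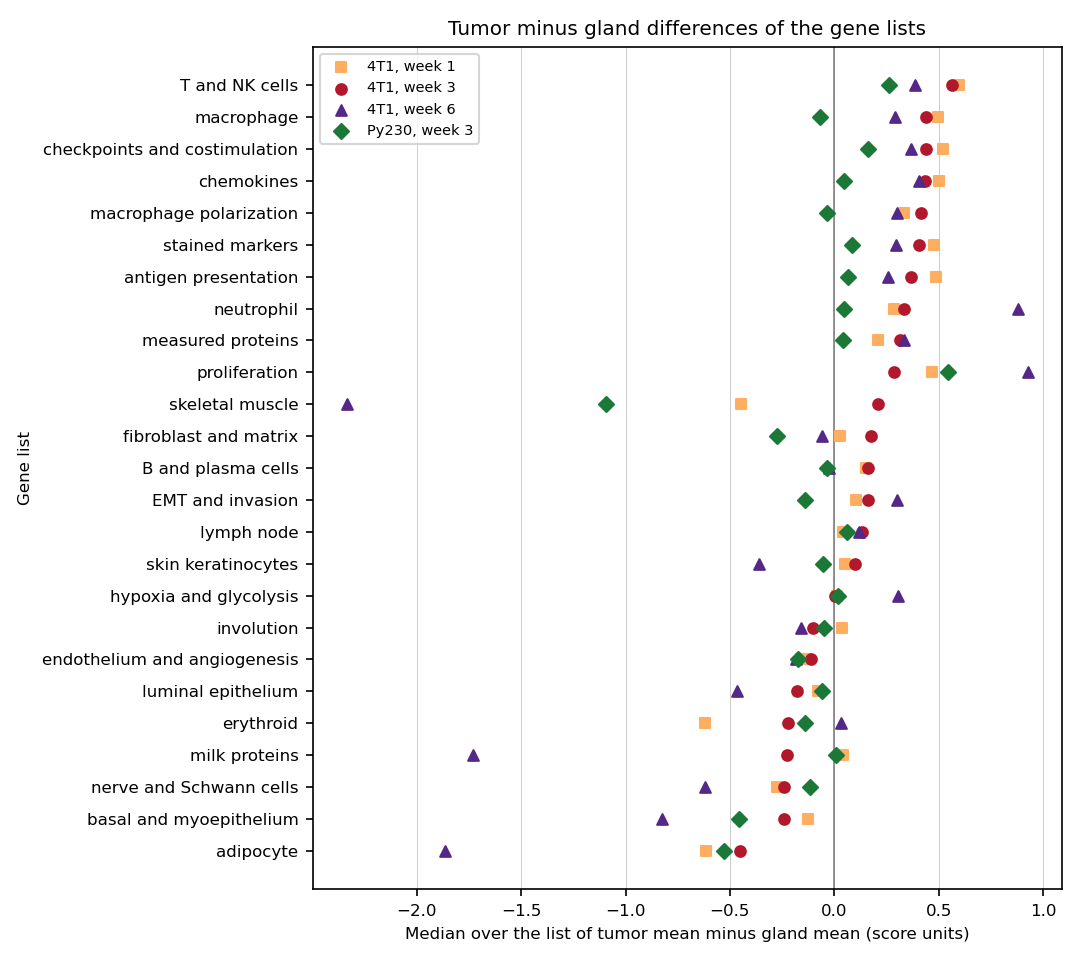
Median over each gene list (y axis) of the tumor mean minus the gland mean (x axis, score units) for 4T1 at weeks 1, 3 and 6 and Py230 at week 3, each against its own Matrigel glands. At week 3, 4T1 lies near its week 1 values in the leukocyte lists (T and NK cells 0.57 and 0.60), and the adipocyte and milk protein lists lie at -0.45 and -0.23 beside -1.86 and -1.73 at week 6.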

How the data were processed

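RNA-seq was carried out on primary tumors and Matrigel glands that were frozen after removal. Per the labels, stranded libraries were prepared from total RNA. The authors aligned reads with STAR to mm10, counted them per gene with summariseOverlaps and normalised them with DESeq2 (versions are not given in the sources used here). The deposited values are scores, in which each library has been centred and scaled over all genes, so that counts and depth cannot be recovered and precision comes from the replicates alone. From the authors' tables only the mean normalized count per gene and the membership of 28 hallmark sets were used. Their fold changes and p-values were not. All score columns matched a label (0 left over), and 5384 genes without a deposited symbol were named from a reference list of gene names. Coordinates came from the GENCODE vM21 annotation (GRCm38).

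limma 3.58.1 (R 4.3.3, MASS 7.3.60.0.1) was fitted to the scores of 36 libraries with 1 mean for each of 12 groups, with trended and robust variance moderation, and p-values were adjusted by Benjamini-Hochberg over 21650 genes at a threshold of 0.05. No filter was applied in this fit. Other comparisons were contrasts of differences in the same fit. Tables and figures were made with Python 3.11.15, pandas 2.3.3, numpy 2.4.6 and matplotlib 3.10.9. On simulated scores for 21650 genes in the comparison of 4T1 tumors with BALB/c glands at week 3, 81% of 100 genes changed by 0.5 and 96% of 100 genes changed by 1 were recovered, and 15 of 192 calls were not changed genes. The simulated noise was independent between genes and equally wide in every library. It held no outlying library such as tumor 1, so these shares do not carry over to the real calls.

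Members and gene lists were chosen with earlier results of these data known. The rule named all genes of the 2 protein and staining lists, the first 4 and 2 called genes of each list, the 12 largest called differences per direction without overlap at a mean normalized count of at least 100, the 6 genes with the widest gap between tumors, and 3 genes per direction for each contrast. Mucl1, Neto1, Gm5886, Npw and Lrch3 were chosen after their values were seen. So were these list members: B2m, C1qa, C1qb, C1qc, Ccl9, Cxcr6, Eomes, Fcgr3, Gzma, H2-D1, H2-DMa, H2-DMb1, H2-K1, H2-Oa, Nkg7, Nlrc5, Prf1, Psmb9, Tap1, Tbx21, Tigit and Tnfrsf4. Some list members are counted but not reported here by name.

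Alternatives were a fit to the compared libraries alone, no trend or robust step, array quality weights (gene-by-gene method, since the default did not converge), cyclic loess, a robust line, genes above the median level, a replicate block, and leaving out each library. Samples with the same number had correlations of deviations of 0.064, 0.406 and -0.055, so the numbers were not taken to pair the samples.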

Additional observations from a re-analysis of the deposited data

Results flagged for a closer look

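Groups of 3 libraries are too small for a test of single outlying libraries. The results here stand out because the tumor minus gland difference at week 3 differed from that of another group by the contrast of the 2 differences in limma.

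Against week 1 this held for 1 gene, Npw. Against week 6 it held for 8008 genes. The largest positive contrasts there, among genes named by the rule, were those of skeletal muscle genes, with Myh4 at 3.53, Ckm at 3.21 and Atp2a1 at 3.12. At week 3, Myh4 scored 2.09, 2.95 and 2.05 in the tumors and 2.88, 2.65 and 0.70 in the glands, and its tumor minus gland difference at week 6 was -3.25. The part of muscle in single libraries in these contrasts was not tested. The largest negative contrasts were Hmga2 at -2.60, Dmp1 at -2.38 and Gpa33 at -2.12, genes whose differences at week 6 were 3.21, 2.62 and 2.35.

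Against Py230 it held for 1980 genes. The immunoglobulin variable genes Igkv1-133 and Ighv1-12, members of families with near-identical copies, had contrasts of 2.67 and 2.23, and their tumor minus gland differences in Py230 were -2.53 and -1.92. Col6a5 had a contrast of 1.74 and a difference of -0.22 in Py230. Scgb1c1, Col11a1 and Dmrta2 had contrasts of -1.70, -1.59 and -1.52, with differences of 1.71, 1.11 and 1.64 in Py230. Strain and tumor line cannot be told apart in this contrast.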

How the results depend on the processing

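In the comparison of 4T1 tumors with glands at week 3 (704 genes), limma on only the 6 libraries called 0 genes (2180 at an unadjusted p under 0.05), genes above the median level gave 360 among fewer genes tested, and leaving out 1 library gave 3 (without tumor 1) to 2155 (without tumor 3). Tumor 1 alone, chosen after seeing the data, gave 6099. Fits without trend, with array weights, cyclic loess or a robust line gave 676, 1014, 925 and 873, of which 669, 540, 668 and 689 were shared with the 704. Array weights were 0.135, 1.17 and 1.16 for tumors 1 to 3. Of 60 called named genes, 60 lost the call with only the 6 libraries and 57 without tumor 1. In the alternatives run, 0 of the 60 changed direction. That count was largely fixed in advance, since most called genes had all 3 tumors beyond all 3 glands. Leaving out libraries cannot reverse such a difference, so the count says little about stability. Of the 104 named genes that were not called, 45 changed direction in at least 1 alternative, with 25 changes without tumor 1 and 25 with array weights. The contrast with week 1 (1 gene) gave 0 with only its 12 libraries (516 at an unadjusted p under 0.05), 2178 with array weights, 0 for genes above the median level (527 unadjusted) and 0 to 1 with 1 library left out, the gene being Lrch3 without tumor 1 of week 3. The contrast with week 6 (8008) gave 4653 for genes above the median level and 6588 to 9053 with 1 library left out. The contrast with Py230 (1980) gave 60 with only its 12 libraries, 7142 with array weights and 569 to 3942 with 1 library left out. The cause of these changes was not tested beyond the number of genes or libraries in the fit. Samples with the same replicate number were not paired by the check, and 2 of 6 samples correlated best with their own number. With the replicate block the counts were 315, 0 (811 unadjusted), 7416 and 1365 in the order given. The share of calls higher moved by scaling from 64.6% to 70.4% at week 3, and the list medians changed sign only for hypoxia and glycolysis and for the androgen response hallmark. The depth is unknown.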
